A study of Mus musculus with 15 samples.

Results

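Complex I of the respiratory chain was followed here through 74 probe sets of 39 genes, out of 22626 probe sets tested. The members were all probe sets whose platform annotation gives 1 gene symbol that starts with Nduf. They cover 13 genes of the Ndufa class, 10 of Ndufb, 2 of Ndufc, 6 of Ndufs, 3 of Ndufv and 5 assembly factors (Ndufaf), and 20 of the 39 genes were read by several probe sets, up to 6 for Ndufs8. By their names 20 of the 74 probe sets (x_at or s_at) can also read related transcripts. Another 8 probe sets pair an Nduf symbol with a further symbol and were left out. RNA came from the gastrocnemius (in the calf, rich in fast fibers) of male C57BL/6NHsd mice, with 1 MOE430A array per mouse. The groups were 5 old mice on caloric restriction (old CR, 25 months), 5 old mice on the normal diet (old, 25 months) and 5 young mice on the normal diet (young, 5 months). All mice were housed singly, the normal diet was itself set below free feeding, CR lasted for life, and the CR chow was enriched so that protein, vitamins and minerals were nearly matched. Values are linear intensities as deposited, differences are on the log2 scale with their standard error (SE), where "with CR" means old CR minus old and "with age" means old minus young, and a probe set was called at an adjusted p (limma, Benjamini-Hochberg over all 22626 probe sets) under 0.05.

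Complex I is the largest enzyme of the chain. Its peripheral arm reaches into the mitochondrial matrix, takes electrons from NADH at a flavin and passes them along iron-sulfur clusters to ubiquinone, and its membrane arm pumps protons across the inner membrane. The core subunits that carry out these steps are conserved down to bacteria, and those of the membrane arm are encoded in mitochondrial DNA. The remaining, accessory subunits surround the core and are needed for assembly or stability, and assembly factors help to build the enzyme without staying in it. In skeletal muscle, mitochondria-rich fibers hold the most of it.

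The genes called in the comparison of old CR with old muscle are shown with their promoters, because genes of this enzyme are often described as sharing promoter motifs. Of the 39 genes, 36 matched RefSeq promoter windows of GRCm38.p6, giving 38 windows of 300 bases, with 250 bases before the start and 50 after it. Both strands were searched for 4 motifs that do not contain one another, named after the factors known to bind them: GCGCA and GCGC with any base between them (NRF1), AAGGTCA (ERR), CCGGAAG (GABP) and AAGATGGC (YY1). At least 1 of them was found in 19 of the 38 windows (50%), and in 18.9% of all 32851 windows. The YY1 letters stood in 6 windows (15.8%, against 2.75% of all), the NRF1 letters in 7 (18.4%, against 4.6%), the GABP letters in 5 (13.2%, against 8.86%) and the ERR letters in 2 (5.26%, against 4.72%). A match is only a match of letters. The 4 windows below belong to called genes and hold a motif, which is in capitals, while the windows of the called genes Ndufv1 and Ndufv2 held none of the 4. Ndufc1 (chr3:51408906-51409205, minus strand) and Ndufa9 (chr6:126849095-126849394, minus strand) have the YY1 letters just after the start, Ndufb7 (chr8:83566508-83566807, plus strand) has the GABP letters just before it, and Ndufs8 (chr19:3912725-3913024, minus strand) has them after it on the opposite strand.
Ndufc1: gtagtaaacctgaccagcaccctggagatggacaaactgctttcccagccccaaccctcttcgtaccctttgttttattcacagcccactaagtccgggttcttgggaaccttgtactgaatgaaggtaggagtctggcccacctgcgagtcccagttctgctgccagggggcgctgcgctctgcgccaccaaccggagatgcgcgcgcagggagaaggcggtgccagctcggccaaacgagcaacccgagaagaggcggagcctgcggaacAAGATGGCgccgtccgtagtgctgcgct
Ndufa9: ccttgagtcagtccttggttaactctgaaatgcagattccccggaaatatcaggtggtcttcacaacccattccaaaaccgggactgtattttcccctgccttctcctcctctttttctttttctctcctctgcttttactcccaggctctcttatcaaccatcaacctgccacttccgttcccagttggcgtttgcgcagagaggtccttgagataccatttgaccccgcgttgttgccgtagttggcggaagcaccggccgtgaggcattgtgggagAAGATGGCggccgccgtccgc
Ndufb7: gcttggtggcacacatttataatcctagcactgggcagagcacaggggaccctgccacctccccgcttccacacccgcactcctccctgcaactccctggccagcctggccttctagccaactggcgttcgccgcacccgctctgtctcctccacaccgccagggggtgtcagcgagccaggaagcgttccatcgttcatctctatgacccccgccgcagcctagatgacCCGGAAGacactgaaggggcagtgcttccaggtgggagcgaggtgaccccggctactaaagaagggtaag
Ndufs8: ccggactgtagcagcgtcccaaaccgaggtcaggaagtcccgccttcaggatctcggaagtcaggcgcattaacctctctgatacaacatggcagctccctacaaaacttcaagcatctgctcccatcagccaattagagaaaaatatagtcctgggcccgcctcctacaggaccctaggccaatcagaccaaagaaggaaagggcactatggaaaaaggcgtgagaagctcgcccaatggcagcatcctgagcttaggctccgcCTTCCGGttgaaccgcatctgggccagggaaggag

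Among the tissue markers, the fast-fiber list was bright in every mouse, with sums over its 11 genes of 260446 to 375250 in old CR, 233131 to 321750 in old and 297171 to 341528 in young muscle. All 11 had higher means in old CR than in old mice (median log2 difference 0.32), with 1 called, the myosin gene Myh1 (adjusted p = 0.0297), and all 11 had lower means in old than in young mice (median -0.18), with none called. The arrays differed in several further measures that ran with the groups. The slow-fiber markers summed to 68107 to 95354 over 7 genes in old CR mice, against 31466 to 65955 in old mice with no overlap, and 26564 to 73741 in young mice. All 7 had higher means in old CR than in old mice, with a median log2 difference of 0.73, and 1, Tnnc1 (slow troponin C), was called. The macrophage markers summed to 2611 to 3502 over 5 genes in old CR mice, against 3756 to 5661 in old and 2182 to 4055 in young mice. On the log2 scale 4 of 5 means were lower in old CR than in old mice, C1qb by only -0.01, and none was called. The linear mean of C1qb was 574 in old CR and 557 in old mice. The fibroblast and tendon markers summed to 16174 to 21593 over 7 genes in old CR mice, against 18496 to 28623 in old and 24152 to 37379 in young mice. Of these, 1 was called lower in old CR than in young mice and none in the other comparisons. Adipocyte markers, 5 of 7 measured, summed to 8295 to 12518 in old CR mice, against 10908 to 17508 in old and 7165 to 13800.5 in young mice. Their median log2 difference was -0.89 with CR and 0.23 with age, none called, but the genes did not move together. With CR 2 of the 5 had higher means, Retn by 0.59 and Fabp4, the brightest, by 0.09. With age 4 of the 5 had higher means, while Retn differed by -0.63. The part of these markers in the complex I results was not tested. The log2 difference between 3′ and 5′ control probe sets of Gapdh and Actb, a reading of how far along the transcript the labelled RNA extends, averaged -0.30 ± 0.08 in old CR, 0.13 ± 0.09 in old and -0.18 ± 0.14 in young mice (SD, n = 5 each). It was lower in old CR than in old mice by 0.42 (two-sided exact permutation p = 0.00794, which no p of 5 against 5 can go below, and 0.0238 adjusted over 3 comparisons). Old mice exceeded young mice by 0.31 (exact permutation p = 0.0159, adjusted 0.0238), and old CR differed from young mice by -0.11 (exact permutation p = 0.127).

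By most probe sets complex I RNA was lowest in the muscle of old mice, and the means of old CR and young mice lay close together. Averaged over the 74 probe sets, each taken as its log2 deviation from its own mean, old CR arrays stood at 0.10 ± 0.14, old arrays at -0.15 ± 0.09 and young arrays at 0.05 ± 0.07 (SD, n = 5 each). The single old CR arrays had 0.31, -0.08, 0.12, 0.08 and 0.05 (replicates 2, 3, 5, 6 and 7), the old arrays -0.08, -0.15, -0.05, -0.29 and -0.16, and the young arrays 0.01, -0.05, 0.11, 0.10 and 0.06. All 5 old arrays lay below 0, old CR replicate 3 lay among them, and young replicate 2 lay just above the highest old array. In muscle samples of this kind, fewer mitochondria-rich fibers and less RNA per fiber cannot be told apart.

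**Figure D1:**
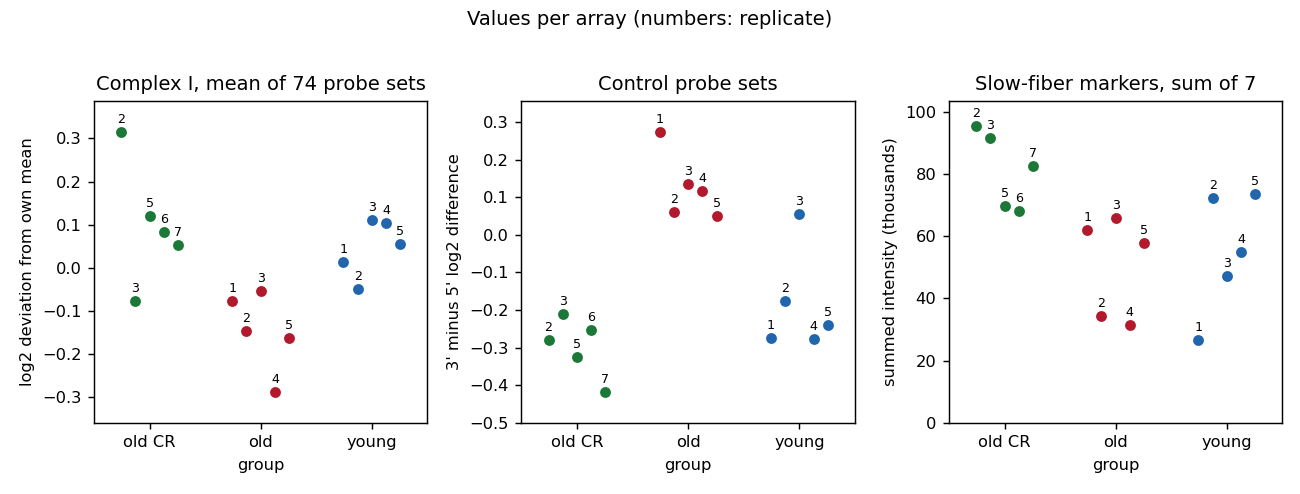
Per-array values in old CR, old and young mice (points, numbered by replicate) of the mean log2 deviation of the 74 complex I probe sets, of the 3′ against 5′ control probe sets (log2) and of the summed intensity of 7 slow-fiber markers (axis divided as labelled). Old arrays were lowest for complex I apart from old CR replicate 3, and highest for the control probe sets except that young replicate 3, at 0.06, lay level with the lowest of them.

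For old against young muscle, 64 of the 74 probe sets (86.5%) had a lower mean in old mice, as did 57% of all probe sets, and 10 had a higher mean (43% of all). The median log2 difference was -0.20, against -0.06 over all probe sets. No complex I probe set was called in either direction with limma, where 0.146% of all probe sets were called lower and 0.119% higher. At an unadjusted p under 0.05, 20 were lower (27%, against 9.25% of all) and 0 were higher (6.24% of all). In 13 (17.6%, against 2% of all), every old mouse lay below every young mouse. These were 3 probe sets of Ndufs8, 2 each of Ndufb7 and Ndufc1, and 1 each of Ndufa12, Ndufaf5, Ndufb11, Ndufs3, Ndufs7 and Ndufv2. Among the brightest probe sets alone, which hold 70 of the members, 3 were called lower (3.17% of those tested were) and 0 higher (2.3%). The 3 were both probe sets of Ndufc1 and 1 of Ndufs8. With each array centred on its median, 53 members had a lower mean, the median log2 difference was -0.11 and 6 were lower at an unadjusted p under 0.05. With the control probe sets' 3′ to 5′ difference in the model, 67 had a lower mean, the median was -0.24 and 2 were lower at an unadjusted p under 0.05.

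For old CR against old muscle, 65 of the 74 (87.8%) had a higher mean in old CR mice, as did 55.3% of all probe sets, and 9 had a lower mean (44.7% of all). The median log2 difference was 0.25, against 0.06 over all. Limma called 6 members higher (8.11%, against 2.7% of all) and 0 lower (2.17% of all were called lower, and 0 members were lower at an unadjusted p under 0.05, against 9.33% of all). Over all probe sets 612 were called higher and 490 lower, and with each array centred on its median 420 higher and 687 lower. The old CR and old arrays did not overlap at 9 members, 1 probe set each of Ndufa6, Ndufa9, Ndufa12, Ndufb7, Ndufs3, Ndufs4, Ndufs8, Ndufv1 and Ndufv2, all higher (12.2%, against 4.86% of all, and 4.04% lower). At an unadjusted p under 0.05, 26 were higher (35.1%, against 12.5% of all). Among the brightest probe sets 13 members were called higher (7.91% of those tested were) and 0 lower (8.56%). The old mice stand in both comparisons, so the lower values in old mice and the higher values with CR are not independent of each other. With the control probe sets' 3′ to 5′ difference added to the model the median log2 difference was 0.33, 2 members had an unadjusted p under 0.05 and none was called, while the median SE was 0.30 in place of 0.14. Centring on the median left 1 call, and leaving out single arrays gave 1 (without old replicate 2) to 7 (without old CR replicate 3). Ndufv1 kept its call in all 15 such fits and Ndufb7 in 14, while Ndufv2 and Ndufc1 kept theirs in 7 and Ndufa9 and Ndufs8 in 3, with adjusted p of up to 0.0628, 0.0825, 0.091 and 0.0958. Ndufv2 lost its call without old replicates 2, 3, 4 or 5, Ndufc1 without old replicates 1, 2, 3 or 4, and Ndufa9 and Ndufs8 without any old array, and each of these genes lost it without any old CR array but replicate 3. Ndufa9 also lost it without young replicates 1, 2 or 4, and Ndufs8 without young replicates 1, 2 or 5.

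For old CR against young muscle the members divided evenly, with 38 higher and 36 lower means (49.2% and 50.8% of all) and a median log2 difference of 0.01. None was called by limma (0.0486% of all were called higher and 0.0398% lower), 9 were higher and 2 lower at an unadjusted p under 0.05 (5.83% and 6.26% of all), and the groups did not overlap for 3 higher and 3 lower members (1.68% and 1.89% of all). The higher ones were Ndufa6, Ndufab1 and Ndufb6, and the lower ones Ndufa13, Ndufa7 and Ndufaf4, 1 probe set each. The Ndufab1 probe set was dim, with means of 125 in old CR and 82.4 in young mice. Among the brightest, 1 was called higher and 0 lower (0.826% and 1.14% of those tested).

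**Figure D2:**
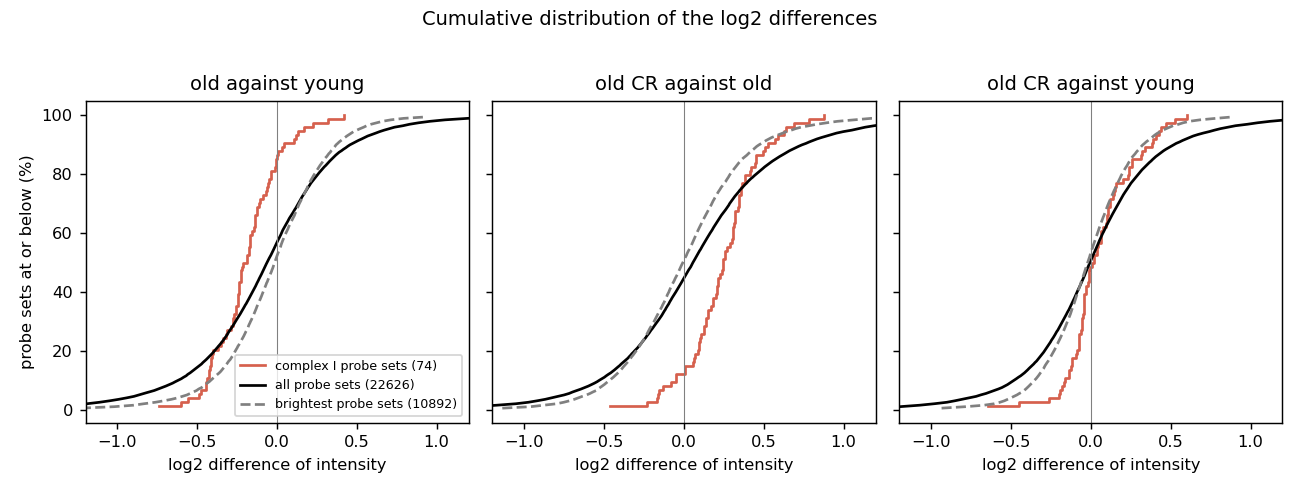
Cumulative share of probe sets (y axis, percent) at or below a log2 difference (x axis) for the 74 complex I probe sets (red), all 22626 (black) and the brightest (grey, dashed). The complex I curve is shifted to lower values in old against young (median -0.20), to higher values in old CR against old (median 0.25), and is centred near 0 in old CR against young (median 0.01).

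The Ndufv class forms the site where electrons enter. Of its 7 probe sets, 6 had a higher mean in old CR than in old mice (median log2 0.38), 2 of them called, and 6 averaged lower in old mice than in young ones (median -0.14), none called. For this class and those below, the shares over all probe sets were 55.3% higher with CR (2.7% called) and 57% lower with age (0.146% called). Ndufv1 (1415967_at), the subunit that binds the flavin and oxidizes NADH, read 10507, 9793, 11004, 10608 and 11759.7 in the old CR mice, against 6986, 5475, 6776, 5454 and 4809.6 in the old and 6782, 10286, 5573, 8978 and 8835 in the young mice. All 5 old CR mice lay above all 5 old mice, and the young mice spread over both ranges. The mean was 10734 ± 721 in old CR, 5900.1 ± 937 in old and 8091 ± 1885 in young mice (SD, n = 5 each), so Ndufv1 rose 1.83-fold with CR, a log2 difference of 0.88 (SE 0.17, adjusted p = 0.0146) with limma. Old differed from young mice by -0.44 (SE 0.17, adjusted p = 0.229) and old CR from young mice by 0.44 (SE 0.17, adjusted p = 0.307), and neither was called. With 1 of the 15 arrays left out, the adjusted p for CR ranged between 0.00335 and 0.0384. Its other probe sets, 1415966_a_at and 1456015_x_at, were also higher on average in old CR than in old mice, by 0.45 and 0.31, but were not called (adjusted p = 0.142 and 0.326).

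Ndufv2 (1428179_at), the neighbouring subunit with its own iron-sulfur cluster, read 12903, 9596, 13105, 12589 and 12609 in the old CR mice, against 9249, 8816, 9079, 7578 and 8248 in the old and 10843, 9829.9, 10089, 10519 and 9898 in the young mice. Of the old CR mice 4 lay close together and replicate 3 far below them, yet still above every old mouse, and all old mice lay below all young mice. Ndufv2 rose 1.41-fold with CR, by 0.50 (SE 0.11, adjusted p = 0.0276) with limma, and differed by -0.25 (SE 0.11, adjusted p = 0.3) between old and young mice. Its 2 other probe sets were not called. Of these, 1438159_x_at differed by 0.10 (SE 0.19, adjusted p = 0.797) with CR and by 0.32 between old and young mice, and 1452692_a_at by 0.38 (SE 0.15, adjusted p = 0.141) with CR and 0.00 with age. At 1452692_a_at the values were 9279.6, 5859.8, 7499, 7669 and 6214 in the old CR mice, against 5714, 6022, 6369, 4549 and 5151 in the old and 5399, 5071, 6518, 5413 and 5338 in the young mice, with old and young mice interleaved and 3 of the 5 old CR mice above both groups. Ndufv3, an accessory subunit of this site, had 7872 ± 1131 in old CR, 8116 ± 919.9 in old and 8208 ± 1088 in young mice, and its log2 difference with CR was -0.05.

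**Figure D3:**
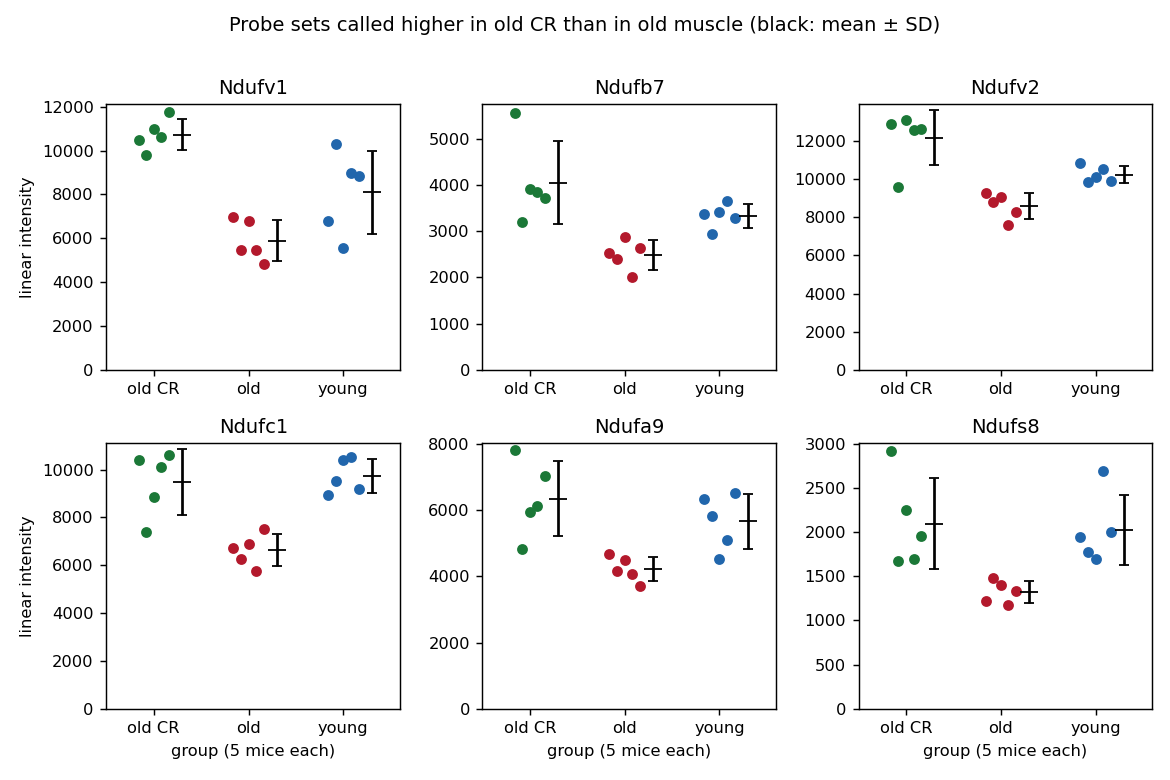
Linear intensity (y axis) of the 6 probe sets called higher in old CR than in old muscle, 1 point per mouse, with the mean and SD in black. The groups old CR and old do not overlap for Ndufv1, Ndufb7, Ndufv2, Ndufa9 and Ndufs8, and for Ndufc1 the lowest old CR mouse (7372) lies below the highest old mouse (7509).

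The Ndufs class, which holds most iron-sulfur subunits, ran one way at every probe set: all 14 averaged lower in old mice than in young ones (median log2 -0.34) and all 14 averaged higher in old CR than in old mice (median 0.31), with 1 call for CR and none for age. These 14 read only 6 genes, and 6 of them read Ndufs8, which therefore weighs most in the medians. Ndufs8 (1423908_at), which carries clusters close to ubiquinone, read 2918, 1674, 2246, 1693 and 1952 in the old CR mice, against 1219.6, 1483, 1404, 1174 and 1329 in the old and 1948, 1774, 1699, 2692 and 1999.8 in the young mice. The old mice lay below both other groups without overlap, while old CR and young mice overlapped. Ndufs8 rose 1.56-fold with CR, by 0.64 (SE 0.17, adjusted p = 0.0476) with limma, and its difference between old and young mice, -0.60 (SE 0.17, adjusted p = 0.119), was not called over all probe sets. With the 3′ to 5′ difference in the model these log2 differences were 0.18 with CR (adjusted p = 0.955) and -0.27 with age (adjusted p = 0.913), and the call with CR held in 3 of 15 fits that left out 1 array. The 5 other Ndufs8 probe sets differed between old CR and old mice by 0.10 to 0.59 and between old and young mice by -0.49 to -0.18. The smallest of these differences, in both comparisons, was at 1434212_at.

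Ndufs3, a core subunit at the base of the peripheral arm, read 9218, 7748, 8682, 8038 and 7623 in the old CR mice, against 7095, 6506, 7227, 5825 and 6904 in the old and 8539, 7407, 8097, 8644 and 8905 in the young mice. Every old mouse lay below every mouse of the other groups. The log2 difference was 0.30 (SE 0.11, adjusted p = 0.117) with CR and -0.31 (SE 0.11, adjusted p = 0.181) between old and young mice, and neither was called by limma. Ndufs1, the largest core subunit with several clusters, had 5194 ± 1001 in old CR, 4116 ± 425 in old and 4904 ± 734 in young mice, and Ndufs7, which holds the last cluster before ubiquinone, had 11686 ± 1134 in old CR, 10518 ± 691 in old and 12288 ± 659 in young mice at its brightest probe set. Their log2 differences with CR were 0.32 and 0.15, and with age -0.25 and -0.23, none of them called. The brightest probe set of Ndufs8, 1455283_x_at, had 6523 ± 1415 in old CR, 5223 ± 851 in old and 6985 ± 872 in young mice.

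Ndufs4, an accessory subunit whose loss gives a Leigh-like disease in mice, had 3 probe sets. At 1448959_at the old CR mice ranged from 3217 to 4444 and the old mice from 1959.7 to 2668, with no overlap and a log2 difference of 0.62 (SE 0.18, adjusted p = 0.0625) that missed the call. The other 2 differed by 0.24 and 0.31 with CR. Ndufs5, which lies on the intermembrane side of the enzyme, differed by 0.10 with CR and -0.14 with age.

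Among the Ndufa genes, 19 of 25 probe sets had a higher mean in old CR than in old mice (median log2 0.21) and 20 were lower on average in old mice than in young ones (median -0.16). Ndufa9, an accessory subunit that binds NADPH beside the ubiquinone site, read 7806, 4818, 5939.7, 6106 and 7023 in the old CR mice, against 4663, 4144, 4503, 4070.4 and 3719.6 in the old and 6334, 5809, 4534, 5099 and 6508 in the young mice. Each old CR mouse exceeded each old mouse, though the lowest old CR value and the highest old value were close, and young mice overlapped both. Ndufa9 rose 1.49-fold with CR, by 0.57 (SE 0.15, adjusted p = 0.0429) with limma, and differed by -0.41 (SE 0.15, adjusted p = 0.199) between old and young mice. With the 3′ to 5′ difference in the model the log2 difference with CR was 0.27 (adjusted p = 0.914), and the call held in 3 of 15 fits that left out 1 array.

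Ndufa6, a peripheral-arm subunit that binds acyl carrier protein, read 9863, 6916, 7378, 7245 and 7525 in the old CR mice, against 5719, 6205, 6362, 5247 and 4946 in the old and 5477, 6397, 5267, 6396 and 5644 in the young mice. All old CR mice lay above all old and all young mice, old CR replicate 2 far above the rest, and old and young mice overlapped. Its log2 difference was 0.45 (SE 0.13, adjusted p = 0.0596) against old mice and 0.41 (SE 0.13, adjusted p = 0.214) against young mice, and neither was called. Ndufa13, known also as GRIM-19, read 10738, 8065, 8986, 9282 and 10053 in the old CR mice, against 11566, 11011, 10988, 11568 and 9964 in the old and 11514, 11185, 13268, 15049 and 13596 in the young mice. The young mice lay above all old CR mice and the old mice overlapped both groups. The log2 difference of old CR from young mice was -0.45 (SE 0.12, adjusted p = 0.153). Against old mice it was -0.23 (SE 0.12, adjusted p = 0.278).

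Ndufa12, an accessory subunit of the peripheral arm, had 4 probe sets, and its x_at probe set 1433513_x_at separated old CR from old mice without overlap at 0.32 (SE 0.10, adjusted p = 0.0764). The 2 other bright ones differed by 0.35 and 0.22 with CR, and a dim one, 1425919_at with means of 24.1 in old CR and 31.9 in old mice, by -0.46. Ndufa7 had 5 probe sets with log2 differences of -0.05 to 0.21 with CR and -0.40 to -0.13 with age. Ndufa2 and Ndufa1 were higher on average in old CR than in old mice by 0.25 and 0.25, Ndufa5 by 0.24 and 0.27, and Ndufa3 by 0.14 and 0.20. Ndufa8, a protein of the intermembrane side, differed by 0.07 and Ndufa10 by -0.16 and -0.08. None of these was called. Ndufab1, the mitochondrial acyl carrier protein, differed with CR by -0.13 (SE 0.14), 0.26 (SE 0.15) and 0.79 (SE 0.26) at its 3 probe sets, none called. The last of them, 1435934_at, was dim, with means of 125 in old CR and 76.7 in old mice. Ndufa4 is now counted with complex IV and differed by 0.34 with CR and -0.01 with age.

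Of the membrane-arm Ndufb genes, 17 of 18 probe sets had a higher mean in old CR than in old mice (median log2 0.18) and 16 were lower on average in old mice than in young ones (median -0.17). Ndufb7 (1448331_at), an accessory subunit on the intermembrane side, read 5567, 3189.5, 3923, 3844 and 3729.8 in the old CR mice, against 2539.8, 2394, 2879.7, 2011 and 2628 in the old and 3376, 2945, 3412, 3655 and 3279 in the young mice. The old mice lay below both other groups without overlap, and old CR replicate 2 stood highest. Ndufb7 rose 1.61-fold with CR, by 0.69 (SE 0.15, adjusted p = 0.0233) with limma, a call lost only without old replicate 2 (adjusted p = 0.0537) when arrays were left out in turn. Its second probe set gave 0.53 (SE 0.15, adjusted p = 0.0567) and was not called. Against young mice, old mice had log2 differences of -0.43 and -0.42 at these 2 probe sets, both without overlap and not called (adjusted p = 0.189 and 0.196).

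Ndufb11 (1416057_at), an accessory subunit encoded on the X chromosome, read 12367, 11198, 12174, 11229.6 and 12881 in the old CR mice, against 10727, 10859.9, 11651, 9534 and 11736 in the old and 13939.9, 12305, 13790.1, 14156 and 13639.5 in the young mice. Young mice lay above all old mice, and the old CR mice overlapped both groups. The log2 difference between old and young mice was -0.32 (SE 0.10, adjusted p = 0.152), while 2 further probe sets gave -0.10 and -0.07. Ndufb6 (1434056_a_at), also of the membrane arm, read 4964, 3899, 4019, 4075 and 3615 in the old CR mice, against 3306, 3708, 3623, 2603 and 2851 in the old and 2716, 3023, 3142, 2948 and 2437 in the young mice. The old CR mice lay above all young mice, and the old mice overlapped both. Its difference of 0.53 (SE 0.13, adjusted p = 0.142) between old CR and young mice had the smallest p among the complex I probe sets in that comparison, was not called over all probe sets and was called among the brightest (adjusted p = 0.0451). The other Ndufb6 probe set gave -0.02, and the 2 also differed in sign between old and young mice (0.17 and -0.17).

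None of the other Ndufb genes was called. Ndufb5 differed with CR by 0.32 and 0.21, Ndufb1 by 0.34, Ndufb10 by 0.23, Ndufb8 by 0.21, Ndufb3 by 0.17 and Ndufb2 by 0.18 and 0.13. Ndufb9, a subunit at the far end of the membrane arm, had -0.17, 0.12 and 0.09 at 3 probe sets, the last of them dim. With age these differed by 0.03, -0.06 and -0.74, the last being the lowest of all members. Without young replicate 3, 1 Ndufb9 probe set, the dim one, was called lower in old than in young mice.

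The 4 Ndufc probe sets all averaged lower in old mice than in young ones (median log2 -0.33) and higher in old CR than in old mice (median 0.37). Ndufc1 (1416285_at), a small accessory subunit of the membrane arm, read 10422, 7372, 8850.0, 10118 and 10631 in the old CR mice, against 6711, 6272, 6905, 5743 and 7509 in the old and 8956, 9545, 10404, 10543 and 9200.3 in the young mice. Every young mouse lay above every old mouse, old CR replicate 3 lay within the range of the old mice, and the other old CR mice lay near or within that of the young mice. Ndufc1 rose 1.42-fold with CR, by 0.51 (SE 0.13, adjusted p = 0.0372) with limma, and it had the smallest p of all members between old and young mice, at -0.56 (SE 0.13, adjusted p = 0.0741), which is not called over all probe sets. Its second probe set, 1448284_a_at, read 9065, 6436, 7888, 8339.7 and 8159 in the old CR mice, against 6247, 6623, 6441, 5405 and 5768 in the old and 8959, 7007, 7935, 8521 and 8239 in the young mice. The old mice again lay below all young mice, by -0.41 (SE 0.12, adjusted p = 0.121), and the difference with CR was 0.38 (SE 0.12, adjusted p = 0.0806). Ndufc2 differed with CR by 0.31 and 0.35.

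**Figure D4:**
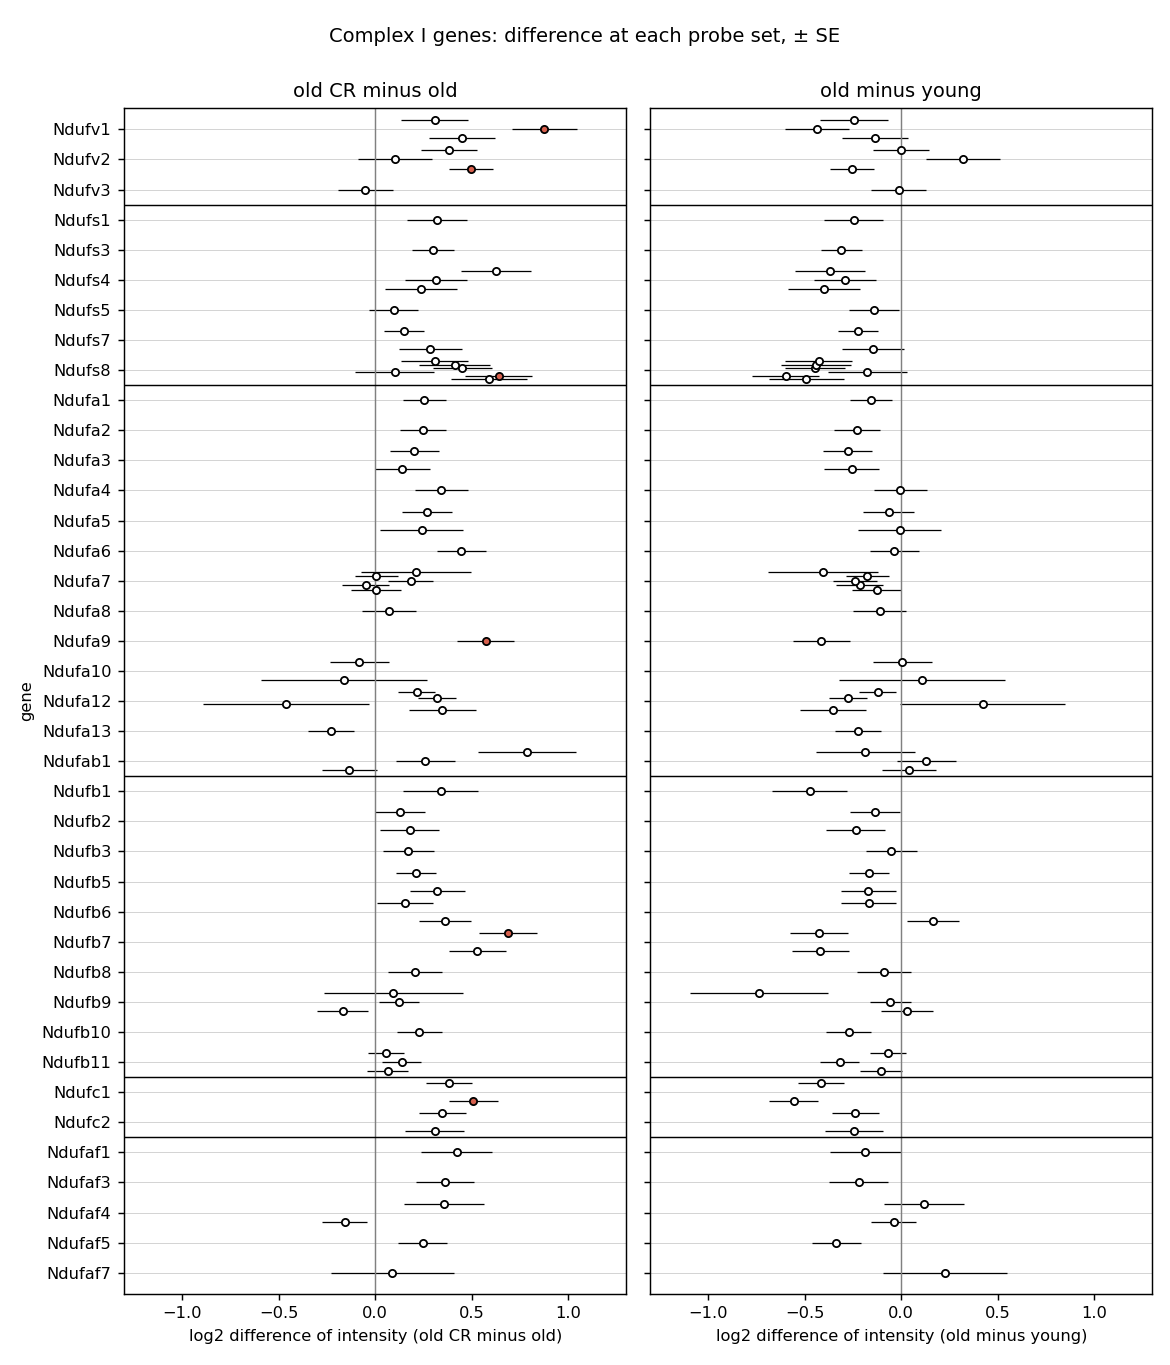
Log2 difference of each complex I probe set (points, with SE bars) by gene, for old CR minus old (left) and old minus young (right). Filled points were called, which holds for 6 points on the left and none on the right, and most points lie above 0 on the left (65 of 74) and below 0 on the right (64 of 74).

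Of the assembly factors, 5 of 6 probe sets had a higher mean in old CR than in old mice (median log2 0.30) and none was called by limma. At an unadjusted p under 0.05, 2 of the 6 were higher with CR, as were 12.5% of all probe sets. Ndufaf1, which helps to build the membrane arm, differed by 0.42 (SE 0.19, adjusted p = 0.2), and Ndufaf3, which acts on the ubiquinone module, by 0.36 (SE 0.15, adjusted p = 0.181). Ndufaf4, the partner of Ndufaf3, gave -0.16 and 0.35. Ndufaf5 and Ndufaf7, which modify core subunits, gave 0.25 and 0.09, and the old mice lay below all young mice for Ndufaf5, by -0.34 (SE 0.13, adjusted p = 0.223).

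By place in the enzyme, the 34 probe sets of the peripheral arm had a median log2 difference of 0.30 with CR and -0.24 with age, and the 30 of the membrane arm had 0.18 with CR and -0.17 with age. All 16 probe sets of the nuclear-encoded core subunits had a higher mean in old CR than in old mice, with a median of 0.35 and 3 called. Of the 16, 15 averaged lower in old mice than in young ones, with a median of -0.25 and none called. At an unadjusted p under 0.05, 9 of the 16 were lower with age, as were 9.25% of all probe sets. The differences between these classes were not tested. Of the mitochondrially encoded subunits, 1 of 7 was measured, ND5, part of the proton pump, at 18272 ± 769 in old CR, 15322 ± 1332 in old and 14481 ± 1603 in young mice (log2 0.26 with CR, adjusted p = 0.187, and 0.08 with age, adjusted p = 0.759).

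Other genes of the pathway were read in the same way. Complexes II to V, with 75 probe sets of 40 genes, had a median log2 difference of 0.28 with CR and -0.16 with age, with 68 higher and 63 lower means, and 7 were called higher with CR and none lower or with age. Examples were Atp5e, a small subunit of ATP synthase (log2 0.80, SE 0.13, adjusted p = 0.00915), Cox8b, the muscle form of a cytochrome oxidase subunit (0.59, SE 0.12, adjusted p = 0.0157), and Sdha, the flavin subunit of complex II (0.56, SE 0.13, adjusted p = 0.0322). Of 12 complex I assembly factors with other names, 9 were measured by 13 probe sets with a median of -0.01 with CR. Timmdc1, which assembles the membrane arm, was the 1 called, at 402 ± 34.8 in old CR, 245 ± 32.1 in old and 264 ± 54.6 in young mice, a rise of 0.72 with CR (SE 0.16, adjusted p = 0.0224).

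None of the 9 regulators of mitochondrial genes was called by limma at any of 19 probe sets in the 3 comparisons. At an unadjusted p under 0.05, 2 of the 19 were higher and 4 lower with CR, as were 12.5% and 9.33% of all probe sets. The nearest with CR were the coactivator gene Ppargc1b, with 252 ± 189 in old CR and 681 ± 77.2 in old mice (log2 -1.86, adjusted p = 0.051), and Yy1, with 847 ± 76.8 in old CR and 1199 ± 212 in old mice at 1 of its 4 probe sets (log2 -0.49, adjusted p = 0.0512). The other Yy1 probe sets differed with CR by -0.32, -0.02 and 0.06 (adjusted p = 0.166, 0.99 and 0.885). With age the first Yy1 probe set differed by 0.54 (limma, adjusted p = 0.0899), with 814 ± 39.0 in young mice. The others differed with age by -0.01, -0.70 and -0.42. Ppargc1a, a coactivator known to drive mitochondrial genes in muscle, was higher on average in old CR than in old mice at each probe set, by 0.45 to 0.98 (lowest adjusted p = 0.0808), with wide spread among the old CR mice.

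Members also varied together from mouse to mouse within a group. Each probe set was correlated with the mean of the members of other genes over the 15 arrays after its group means were removed, which describes arrays that share RNA, scaling and labelling. The median Pearson r was 0.63, 46 probe sets were above 0.5 and 11 below 0. Ndufb7 at 1448331_at was most like the rest (0.94), followed by Ndufb6 at 1434057_at (0.88) and Ndufv2 at 1452692_a_at (0.88). All 5 probe sets of Ndufa7 were below 0, with 1422976_x_at lowest at -0.54, and Ndufv1 at 1415967_at, the member with the smallest p for CR, stood at -0.01.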

How the data were processed

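RNA of gastrocnemius from 15 mice was labelled and hybridized to MOE430A arrays, and the authors averaged repeated scans. In the table deposited by the authors, each array has a linear intensity for each of 22690 probe sets. Each array's mean after trimming 2% at both ends is 500, which scaling array by array gives, so these are not the RMA values that the methods describe; the submitters' processing notes name RMA and MAS5 without versions. No depth applies, and the number of arrays limits the precision. Genes were named from the platform annotation (20393 probe sets with 1 symbol, 691 with several, 1606 with none).

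After 64 control probe sets were dropped, log2 intensities (no pseudocount added) of 22626 probe sets went into limma 3.58.1 (R 4.3.3; 3 groups of 5 in 1 fit, prior degrees of freedom 2.17), with Benjamini-Hochberg adjustment over all. The EBarrays model of the methods was not run. Arrays are separate animals. The members, gene lists and tests were chosen with earlier results of these data known. Every gene is named, with values for each array for called members or the 5 with the smallest p per comparison. Alternatives were the brightest probe sets (by mean, as many as the study's detection filter kept), median centring, quantile normalization, 2 groups only, a variance trend with robust eBayes, array weights, a replicate block, the 3′ minus 5′ covariate, an adjusted p under 0.10, an offset of 50 and leaving out each array. The fit was tested on simulated data. Python 3.11.15, NumPy 2.4.6, pandas 2.3.3 and Matplotlib 3.10.9 were used.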

Additional observations from a re-analysis of the deposited data

Results flagged for a closer look

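In groups of 5 mice, 4 values of the probe sets described in detail stood apart from the rest of their group by Dixon's ratio (over 0.71), out of 48 groups at 16 probe sets. Chance alone marks about 1 in 20 groups, and none of these has been given an explanation here. Ndufv2 at 1428179_at read 9596 in old CR replicate 3, while the 4 other old CR mice had 12589 to 13105. Ndufa6 read 9863 in old CR replicate 2, while the others had 6916 to 7525. At the second Ndufv2 probe set, 1452692_a_at, young replicate 3 read 6518 and the other young mice 5071 to 5413. Ndufb11 at 1416057_at read 12305 in young replicate 2, while the others had 13640 to 14156. The first 2 of these mice also had the lowest and the highest mean of all complex I probe sets among old CR mice (-0.08 and 0.31).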

How the results depend on the processing

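The median log2 differences kept their direction under all alternatives for old against young (-0.24 to -0.11) and old CR against old (0.16 to 0.33), and lay between -0.03 and 0.04 for old CR against young with all arrays, while counts of calls moved. Log2 differences cannot change in a fit of only the 2 groups, with the variance trend or at an adjusted p under 0.10. Nor can they when an array outside the comparison is left out, so those settings do not test the direction. Of the members, 0 were called lower in old than in young mice, but 3 among the brightest probe sets, 3 with a variance trend and robust eBayes, 2 with array weights, 1 at an adjusted p under 0.10 and 1 with an offset of 50, and 0 to 2 with single arrays left out (2 without young replicate 3). The 6 members called higher in old CR than in old mice became 13 among the brightest, 14 with the trend, 13 at an adjusted p under 0.10, 10 with the offset, 3 with quantile normalization, 3 in a fit of only the 2 groups, 1 with median centring and 0 with the 3′ minus 5′ covariate, and 1 to 7 with single arrays left out. For old CR against young mice, 1 was called higher among the brightest and 1 with the trend, and 1 lower with the trend. With the replicate number as a block 0 of the 6 calls remained, with a median SE of 0.20 in place of 0.14 for old CR against old. Deviations of arrays with the same number had r = -0.28 to 0.05 over 5 pairs of old and young mice. Over 3 pairs of old CR and old mice r was -0.03 to 0.09. So few pairs cannot show whether mice with the same number shared anything more. No difference of a named probe set changed sign. Of their values under alternatives, 321 stayed on the same side of the threshold, 65 lost a call and 14 gained one. The 5 arrays a group and the shared old mice limit all these counts, and the cause of the changes was not tested.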
